A study of Daphnia magna with 230 samples.

Results

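Untreated stormwater reached the laboratory from 2 positions in the catchment, and the comparison described here sets one against the other. Of the 230 libraries of the series, 94 belonged to it: 50 from pipe outflows (Cedar Lake, Crystal Lake and SAP) and 44 from the inflows of sand filters (37ST, TBNS1 and TBNS2). All libraries whose labels gave a pipe outflow, or the inflow of a filter, in spring, early summer or late summer were taken. Outflows of the filters, laboratory controls and the wetland experiment stayed out, as did 1 library whose season label and library code disagree. Pipes carried water from larger catchments just above the lake or stream that receives it, and the filters, which hold sand mixed with iron, lay further up in their catchments.

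Whole bodies of the water flea Daphnia magna were measured by strand-specific messenger RNA sequencing. Neonates under a day old, from a laboratory culture of purchased animals (Carolina Biological Supply), were held for 96 h in water from 1 site and event, with 0 ng/L pyriproxyfen, and each library was made from a pool of 5 animals. The pipe group comprised 10 waters (3 in spring, 3 in early summer and 4 in late summer, where SAP has a second set of libraries), and the inflow group 9 waters, 3 in each season. The labels do not say whether the second SAP set is another event, another bottle or a repeat. It was counted as a separate water. Each water gave 5 libraries, except 37ST in early summer with 4. The study describes, for the wetland experiment, that the animals exposed to a water were divided into pools after the exposure. It calls the stormwater procedure similar. The libraries of a water thus share that exposure, and a p-value over libraries measures the spread between such pools as if they were separate exposures. For that reason the comparison was also made over the 19 waters, and the 6 sites remain the smallest unit of the site type itself.

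Some background on several of the transcripts named below is useful, although most transcripts that passed carried no functional name. Daphnia carries a family of hemoglobins with 2 heme-binding domains per chain, and water low in oxygen is known to raise their production and turn the animals red. In animals generally, a family of prolyl hydroxylases marks the hypoxia-inducible factor for breakdown while oxygen is present. The retinoid X receptor of arthropods is the partner of the ecdysone receptor, which carries the molting hormone signal.

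The files held estimated counts for 29127 transcripts, of which 26458 had counts in the 94 libraries and were tested. Library totals lay between 5040635 and 12903001 counts for pipes (median 10631881) and between 7252452 and 14182171 for inflows (median 10447685). Counts were scaled to 1000000 per library total (CPM), and 3 counts in a library amounted to 0.2115 to 0.5952 CPM, a floor that covers counting error only. The third spring library of Crystal Lake stood apart. It had the lowest total (5040635), the fewest transcripts detected (17387), and 72.6% of its counts in its 10 most abundant transcripts, against 7.81% to 19.7% in the other 93 libraries. Its most abundant transcript, Dapma7bEVm020523 (named after its values were seen, with no name in the tables used here), stood at 159748 CPM there, at a mean of 797 CPM in the other spring libraries of Crystal Lake, and at no more than 15392 CPM elsewhere. Results that rest on it are given with and without it.

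Site type accounted for little of the variation between libraries. On log2(CPM + 1), season took 12.9% of the sum of squares, site type after season 0.797%, the site within its type 6.003%, further differences between waters 14.4%, and differences between the pools of a water 65.9%. Taken over means per water, the share of site type was 2.32% and that of season 37.7%. The first principal component held 27.5% of the variance and the second 20.5%. Site type after season accounted for at most 1.35% of the variance along any of the first 4 components, and season for 25.05% along the first.

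**Figure D1:**
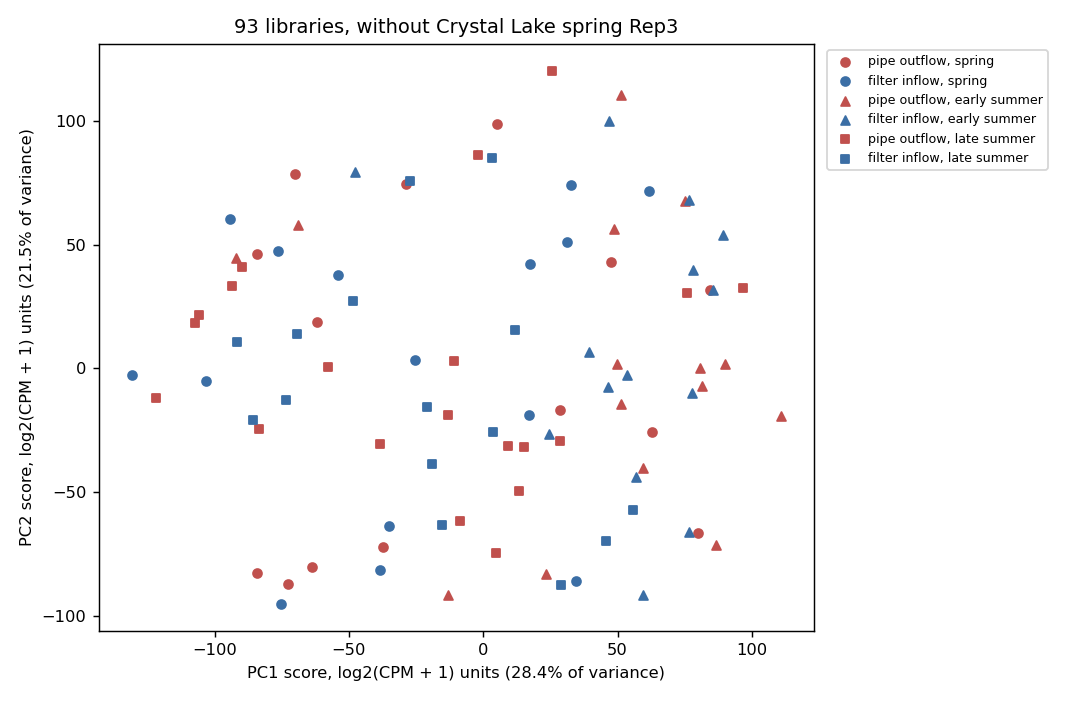
Principal component scores of 93 libraries (without the third spring library of Crystal Lake) from log2(CPM + 1), with the first component (28.4% of the variance) on the x axis and the second (21.5%) on the y axis. Marker shape gives season and colour gives site type, and pipe and inflow libraries are spread over the same range on both axes.

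The 2 site types were compared first over all libraries, with season as covariate, to find transcripts that differ between water from pipes and water entering filters whatever the season. Differences were tested with the quasi-likelihood F test of edgeR, with p-values adjusted after Benjamini and Hochberg over all transcripts. A transcript passed where this adjusted p lay under 0.05, and was called a differentially expressed gene (DEG) where its absolute log2 fold change was also over 2. Of the 26458 transcripts, 216 passed as higher in pipes (0.816%) and 175 as lower (0.661%). DEGs comprised 44 higher (0.166%) and 4 lower (0.0151%). Without the third spring library of Crystal Lake, DEGs numbered 14 higher (0.0529%) and 3 lower (0.0113%), and 0.473% of transcripts passed as higher and 0.609% as lower.

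The DEGs with higher levels in pipes rested largely on single libraries. Of the 44, 30 had their highest CPM in the third spring library of Crystal Lake, which alone held between 38.9% and 90.2% of their summed pipe CPM. The median was 0 in both site types for 19 of them, and the tables used here gave any name to 4. Among the 14 DEGs higher in pipes when that library was left out, 4 had a mean of at least 1 CPM and 7 had over 50% of their pipe CPM in 1 library. The third spring library of Cedar Lake held 99.0% of the pipe CPM of Dapma7bEVm020604 and 98.8% of that of Dapma7bEVm020279, both named after their values were seen. Dapma7bEVm020604 was at 0 to 142.7 CPM in pipes with a median of 0, and reached 0.188 CPM in inflows. When both libraries were left out, 10 DEGs were higher in pipes and 3 lower, and 1 of the 48, Dapma7bEVm016549 (also singled out after its values were seen), turned from a log2 fold change of 2.95 to -0.39.

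**Figure D2:**
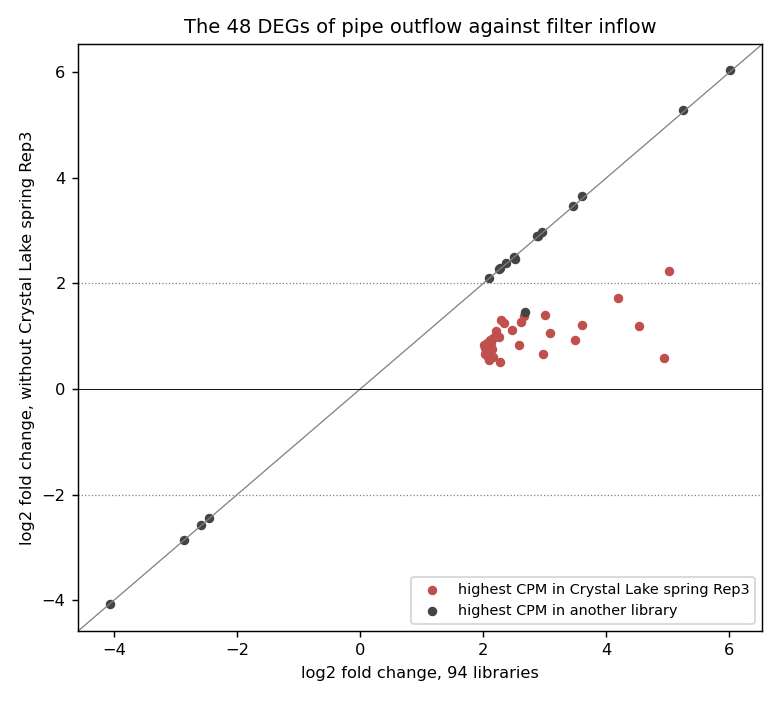
Log2 fold changes (pipe over inflow) of the 48 DEGs, with all 94 libraries on the x axis and without the third spring library of Crystal Lake on the y axis. Of the 44 DEGs higher in pipes 14 kept the call without that library, the other 30 lay at 0.52 to 1.72, and 3 of the 4 lower in pipes kept it.

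Moderate changes were more evenly spread over libraries. With a mean of at least 1 CPM and the same sign of the difference in medians in all 3 seasons, 267 transcripts passed, of which 140 were lower and the rest higher in pipes. The median absolute log2 fold change was 0.53 among the lower and 0.31 among the higher ones. Without the third spring library of Crystal Lake, 93.6% of the lower and 59.1% of the higher ones still passed. Among all transcripts tested, fewer passed as lower, and fewer as higher, without site SAP, TBNS1 or TBNS2 than without that library. The same held for limma-voom with water as a random block. Without site Cedar Lake or Crystal Lake more passed in both directions than with all libraries, and without site 37ST fewer did. Of the 267, 9 lower and 2 higher transcripts carried a functional name in the study's tables.

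Among transcripts with a functional name and a mean of at least 1 CPM that passed as lower, globins held the largest log2 fold changes. A transcript named for furin-like repeats (Dapma7bEVm014555, singled out after its values were seen) also passed as lower, at -2.46, with a mean of 0.059 CPM. Of 11 tested transcripts that the study's tables name as globins, 3 passed as lower in pipes (27.3%, against 0.661% of all transcripts). None of the 11 passed as higher, and 9 had a negative log2 fold change. Their median log2 fold change was -0.46, against 0.03 over all transcripts tested, and the counts were the same without the third spring library of Crystal Lake. Kallisto divides reads among nearly identical transcripts by estimation, so the levels of single globins are uncertain. Since whole animals were sequenced, fewer cells of a type cannot be told apart from less RNA per cell.

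The di-domain hemoglobin precursor Dapma7bEVm015367, an oxygen carrier of the hemolymph, was at 2.41 to 874 CPM in the pipe libraries (median 287) and at 31.0 to 2853 CPM in the inflow libraries (median 854). Of the 50 pipe libraries 47 lay below the inflow median, while the ranges of the groups overlapped. By water, pipe means were 221, 707 and 382 CPM for Cedar Lake in spring, early summer and late summer, 418, 477 and 320 CPM for Crystal Lake, and 195, 255, 52.7 and (second set) 191 CPM for SAP. Inflow means were 648, 944 and 874 CPM for 37ST in the same order of seasons, 852, 2215 and 861 CPM for TBNS1, and 864, 1201 and 856 CPM for TBNS2. All 10 pipe waters lay below the inflow median, and 9 lay below the lowest inflow water, the exception being Cedar Lake in early summer.

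The mean of Dapma7bEVm015367 over waters was 322 ± 184 CPM in pipes (SD, n = 10) and 1035 ± 465 CPM in inflows (SD, n = 9), 3.20-fold more in inflows on the fitted scale. The log2 fold change was -1.68 ± 0.24 (SE), with an adjusted p of 7.5e-07 over libraries and of 0.132 when counts were summed per water (both edgeR's quasi-likelihood test). An exact permutation of site type over waters within season gave p = 0.000143 (2-sided), where 7.14e-05 is the smallest p the 14000 arrangements allow, and p = 0.126 was the lowest after adjustment over all 26458 transcripts. Here and below, this permutation treats waters of a site as separate units, although the same sites recur in every season. An exact permutation over sites could give no p under 0.1. Within seasons the log2 fold change was -1.46 ± 0.43 in spring, -1.63 ± 0.32 in early summer and -1.96 ± 0.44 in late summer (SE). The sign was the same in each season, and each pipe site lay below each filter site, with site means of 437, 405 and 174 CPM for Cedar Lake, Crystal Lake and SAP against 822, 1309 and 973 CPM for 37ST, TBNS1 and TBNS2. With season taken out, 4.69% of all transcripts had this order of sites.

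A second di-domain hemoglobin precursor, Dapma7bEVm011064, was the DEG with a functional name and a mean of at least 1 CPM among the 4 lower in pipes. It was at 0.551 to 111.7 CPM in the pipe libraries (median 4.00) and at 0.918 to 264 CPM in the inflow libraries (median 39.4). All but 1 of the 50 pipe libraries lay below the inflow median, with overlapping ranges. Pipe waters ranged from 1.75 CPM (SAP, second set of late summer) to 39.8 CPM (Crystal Lake in spring), and inflow waters from 24.8 CPM (TBNS1 in spring) to 154.97 CPM (TBNS1 in early summer), so that 9 of 10 pipe waters lay below the lowest inflow water. The log2 fold change was -2.58 ± 0.36 (SE), 5.97-fold on the fitted scale, with an adjusted p of 7.9e-07 over libraries and 0.217 over summed waters (edgeR's quasi-likelihood test) and p = 0.000643 by the exact permutation over waters. The difference was -1.24 ± 0.71 in spring, -3.27 ± 0.57 in early summer and -3.14 ± 0.47 in late summer on the log2 scale, and these were not called different between seasons.

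Cytoglobin-2 (Dapma7bEVm007706), named for a globin of the cell interior in vertebrates, was the third member that passed. Its levels were 0 to 13.2 CPM in pipes (median 3.04) and 0.776 to 21.8 CPM in inflows (median 6.62), with a log2 fold change of -0.93 ± 0.23 (SE) and an adjusted p of 0.0144 over libraries and 0.432 over summed waters (edgeR's quasi-likelihood test). All 10 pipe waters lay below the inflow median and 2 below the lowest inflow water. The call was lost without the sites Cedar Lake, TBNS1 or TBNS2, each left out in turn, and without 3 of the inflow waters (TBNS1 in early and late summer, TBNS2 in spring).

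The other 8 globins did not pass. Dapma7bEVm015299 had a log2 fold change of -0.95, Dapma7bEVm020224 of -0.55, Dapma7bEVm021628 of -0.46, Dapma7bEVm014981 of -0.45 and Dapma7bEVm029622 of -0.38. The remaining members lay closer to 0 or above it, with -0.045 for Dapma7bEVm002046, 0.11 for Dapma7bEVm002068 and 0.28 for Dapma7bEVm011771. Dapma7bEVm029622, which had the highest counts of the family, was at 21.3 to 11251 CPM in pipes (median 3537) and at 67.9 to 13749 CPM in inflows (median 5091). The CPM of all 11 globins summed was 1665 to 14882 over pipe waters (median 5388) and 5665 to 20071 over inflow waters (median 7730), with overlap between the site types.

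**Figure D3:**
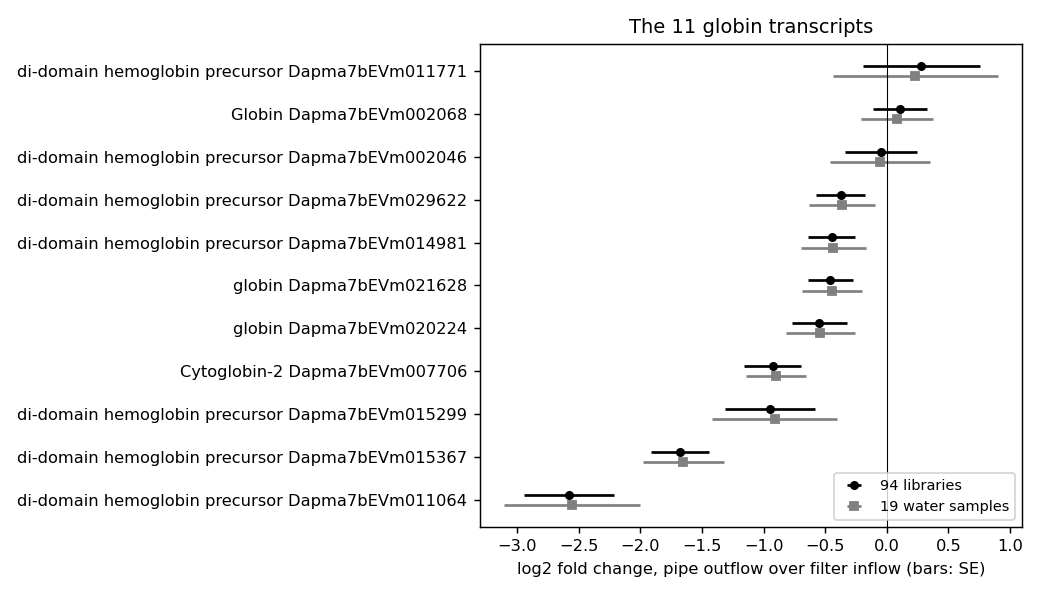
Log2 fold change (pipe over inflow, x axis) of the 11 globin transcripts, from the fit over 94 libraries and from the fit over counts summed per water (19 waters), with bars of 1 SE. Dapma7bEVm011064 (-2.58), Dapma7bEVm015367 (-1.68) and Dapma7bEVm007706 (-0.93) passed over libraries, and none passed over waters.

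Heme synthesis was examined beside the hemoglobins. Both transcripts named as 5-aminolevulinate synthase, the enzyme of the first step of heme synthesis, were chosen after values were seen and did not pass. Dapma7bEVm027691 had a log2 fold change of -0.18 ± 0.16 and Dapma7bEVm002278 of -0.15 ± 0.16 (SE).

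The oxygen-sensing prolyl hydroxylase Dapma7bEVm001559 was lower in pipes by a smaller amount with less spread. It was at 21.4 to 130 CPM in pipes (median 98.4), where the lowest value came from the third spring library of Crystal Lake and the next lowest was 59.7 CPM, and at 75.4 to 163 CPM in inflows (median 125.7). All but 1 of the 50 pipe libraries lay below the inflow median. Pipe waters lay between 80.3 and 113.2 CPM and inflow waters between 104.3 and 137.9 CPM, with 8 of 10 pipe waters below the lowest inflow water. The log2 fold change was -0.40 ± 0.06 (SE), with an adjusted p of 2.8e-06 over libraries and 0.347 over summed waters (edgeR's quasi-likelihood test), and p = 0.000286 by the exact permutation over waters.

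The retinoid X receptor (Dapma7bEVm005219) separated the waters of both site types without overlap. Its level was 2.78 to 36.4 CPM in the pipe libraries (median 19.8), the lowest value again in the third spring library of Crystal Lake and the next at 8.45 CPM, and 18.6 to 61.8 CPM in the inflow libraries (median 27.9). By library the ranges overlapped, and 46 of 50 pipe libraries lay below the inflow median. By water, pipes held 14.5 CPM (Crystal Lake in spring) to 23.4 CPM (Crystal Lake in early summer), and inflows 24.4 CPM (37ST in spring) to 53.7 CPM (TBNS1 in early summer). Each of the 10 pipe waters was therefore below each of the 9 inflow waters. Of the 16279 transcripts with a mean of at least 1 CPM, 2 had this order (0.0123%), the other being Dapma7bEVm002879 (no name, log2 fold change -0.33 ± 0.07 (SE), singled out after its values were seen), with pipe waters at 115.1 to 146.2 CPM and inflow waters at 151.2 to 219.6 CPM.

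For Dapma7bEVm005219 the mean over waters was 20.02 ± 2.68 CPM in pipes (SD, n = 10) and 31.5 ± 8.88 CPM in inflows (SD, n = 9). The log2 fold change was -0.67 ± 0.08 (SE), with an adjusted p of 2.0e-08 over libraries and of 0.0829 over summed waters (edgeR's quasi-likelihood test). The exact permutation over waters gave p = 7.14e-05, the smallest it can give, with and without the third spring library of Crystal Lake. Of all transcripts 15 were at this p, and the lowest permutation p after adjustment over all of them was 0.126. The study's classifier of site type retained this receptor on these same libraries, among others, so its p is not independent evidence. Within seasons the log2 fold change was -0.47 ± 0.14 in spring, -0.98 ± 0.15 in early summer and -0.62 ± 0.12 in late summer (SE). The site means were 19.2, 19.96 and 20.6 CPM for Cedar Lake, Crystal Lake and SAP, and 27.9, 38.7 and 27.7 CPM for 37ST, TBNS1 and TBNS2.

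**Figure D4:**
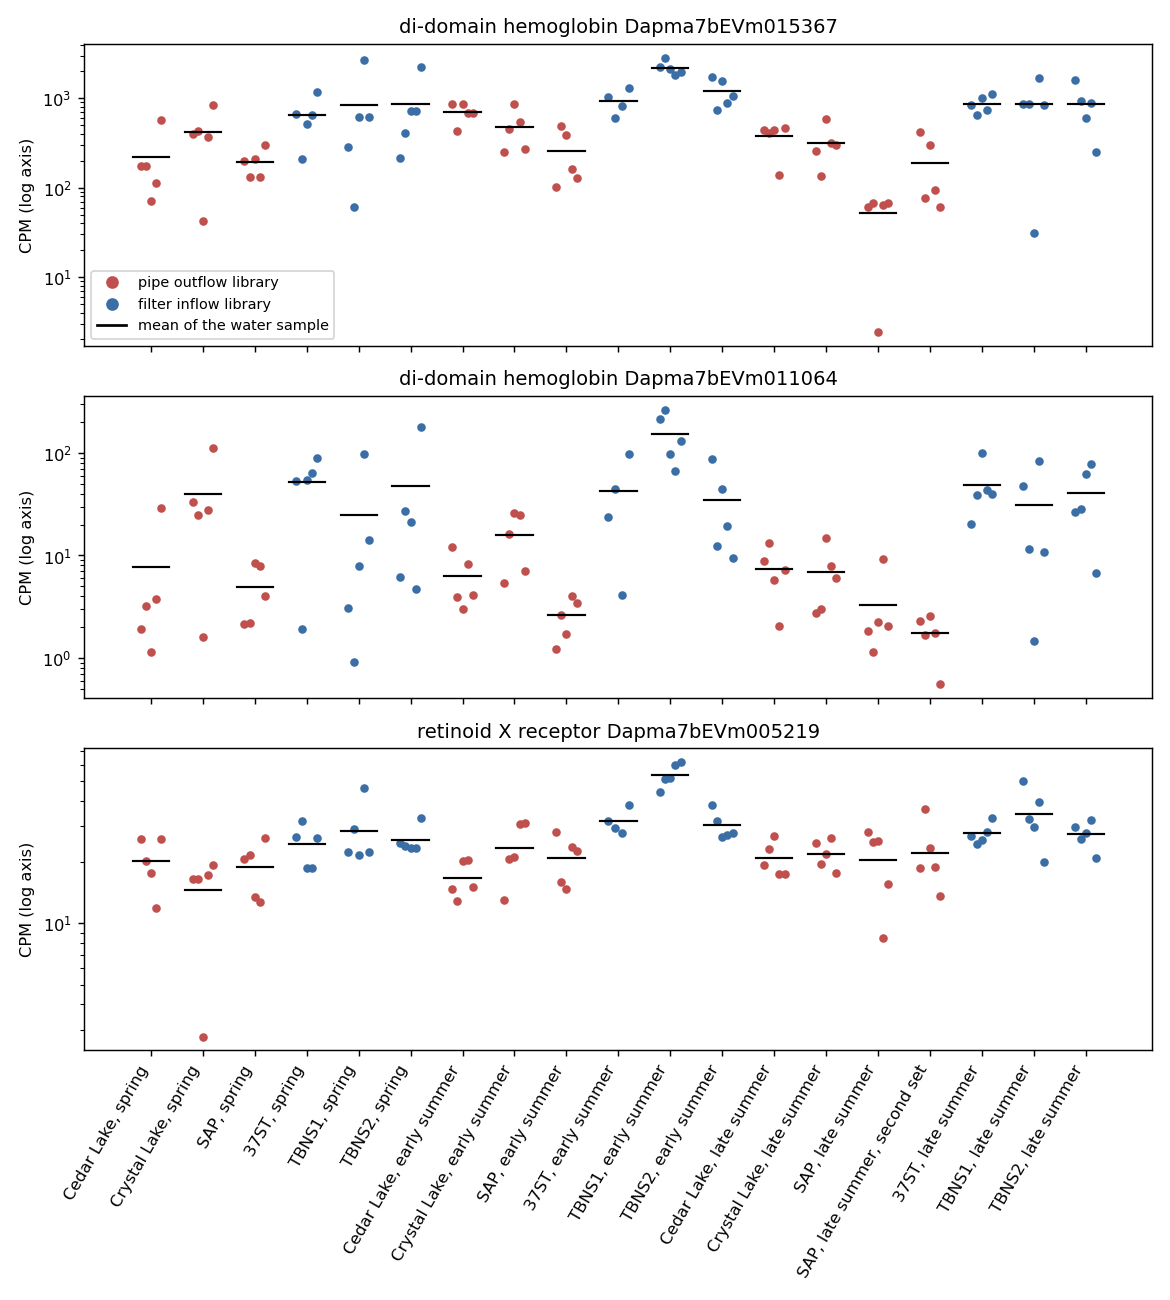
CPM (log axis) of hemoglobin Dapma7bEVm015367, hemoglobin Dapma7bEVm011064 and the retinoid X receptor Dapma7bEVm005219 in each library, by water (10 pipe, 9 inflow), with the mean of each water. Mean levels of the receptor were 14.5 to 23.4 CPM in pipe waters and 24.4 to 53.7 CPM in inflow waters.

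Named transcripts with other roles were also lower in pipes. The Period circadian protein (Dapma7bEVm010023), a component of the circadian clock, was at 21.03 to 192 CPM in pipes (median 113.002) and 67.4 to 291 CPM in inflows (median 156.9), with a log2 fold change of -0.55 ± 0.09 (SE), an adjusted p of 3.6e-05 (edgeR) and p = 7.14e-05 by the exact permutation over waters. N-acylneuraminate-9-phosphatase (Dapma7bEVm030734), an enzyme of sialic acid synthesis, was at 3.57 to 83.1 CPM in pipes (median 37.9) and 26.0 to 106.4 CPM in inflows (median 53.4), with a log2 fold change of -0.73 ± 0.11 (SE) and an adjusted p of 1.1e-05 (edgeR). All 10 pipe waters lay below the inflow median for each of both transcripts. DNA topoisomerase 2-binding protein 1-A (Dapma7bEVm018485), of the DNA damage response, fell by 0.82 on the log2 scale (median 32.8 CPM in pipes, 56.3 CPM in inflows). The Ras-specific factor RalGPS2 (Dapma7bEVm004602), an activator of Ral GTPases, fell by 0.68 (median 77.9 CPM in pipes, 130 CPM in inflows). The calls of Dapma7bEVm018485 and Dapma7bEVm004602 were lost without site SAP or without site TBNS1. Over summed waters the adjusted p was 0.437 for Dapma7bEVm010023, 0.132 for Dapma7bEVm030734, 0.428 for Dapma7bEVm018485 and 0.242 for Dapma7bEVm004602 (edgeR).

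The atrial natriuretic peptide receptor (Dapma7bEVm000345), named for a membrane guanylyl cyclase, rose by a small amount with a low adjusted p. It was at 7.54 to 55.9 CPM in pipes (median 34.3) and 18.2 to 47.2 CPM in inflows (median 27.3), and 44 of 50 pipe libraries lay above the inflow median. The log2 fold change was 0.27 ± 0.05 (SE), with an adjusted p of 0.000146 (edgeR's quasi-likelihood test) and p = 0.0316 by the exact permutation over waters, and the call was lost without site SAP. Over summed waters its adjusted p was 0.413 (edgeR). The other named rise, Dapma7bEVm024815 (a docking domain of vesicle traffic), was at 0 to 1895 CPM in pipes (median 8.31) and 0 to 62.4 CPM in inflows (median 7.18). Its log2 fold change was 2.26 ± 0.56 (SE) with an adjusted p of 0.0142 (edgeR), and 0.98 with an adjusted p of 0.155 without the third spring library of Crystal Lake, which held 63.01% of its pipe CPM. Over summed waters its adjusted p was 0.624 (edgeR).

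Dapma7bEVm001559, Dapma7bEVm005219, Dapma7bEVm010023, Dapma7bEVm030734 and Dapma7bEVm000345 belong to the 18 transcripts that the study's classifier of site type retained. The study describes the misclassification error of that classifier as poor, though significantly lower than random labels would give. The list of 18 was chosen on these same libraries together with those of treated outflows. Its counts, and the p-values given here for its members, are thus not independent evidence. Of the 18, 8 passed as lower and 3 as higher in pipes (61.1%, against 1.48% of all transcripts in either direction), and 7 and 3 passed without the third spring library of Crystal Lake. The median log2 fold change of the list was -0.15. With season taken out, all 3 pipe sites lay below all 3 filter sites for 8 members and above for 3, against 4.69% and 2.65% of all transcripts. With 3 sites against 3, no exact test can give a p under 0.1.

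Among the members without a described function, Dapma7bEVm006689 had the largest fall. It was at 0.794 to 20.8 CPM in pipes (median 6.31) and 2.54 to 35.1 CPM in inflows (median 13.7), with a log2 fold change of -1.05 ± 0.16 (SE). Dapma7bEVm006017 had a log2 fold change of -0.74, Dapma7bEVm026336 of -0.72 and Dapma7bEVm009441 of -0.43, while Dapma7bEVm007359 had 0.69 and Dapma7bEVm000580 had 0.21, all 5 past the test over libraries. Over summed waters none of these 6 passed, with adjusted p from 0.0829 (Dapma7bEVm006017) to 0.730 (Dapma7bEVm009441) (edgeR). Dapma7bEVm009441 passed narrowly (adjusted p = 0.0491) and lost the call in 21 of 34 alternative settings. The call of Dapma7bEVm007359 was lost without site SAP, 37ST or TBNS1 or without the early summer water of SAP (log2 fold changes of 0.55, 0.67, 0.62 and 0.60), and that of Dapma7bEVm000580 without site SAP or TBNS1 (0.15 and 0.14). The 7 members that did not pass had levels of up to 100 CPM and log2 fold changes from -0.88 to 0.91, and included GTP cyclohydrolase (Dapma7bEVm012728, 0.91 ± 0.32) and alpha skeletal muscle actin (Dapma7bEVm020539, 0.87 ± 0.39), both with medians under 0.1 CPM in both site types.

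**Figure D5:**
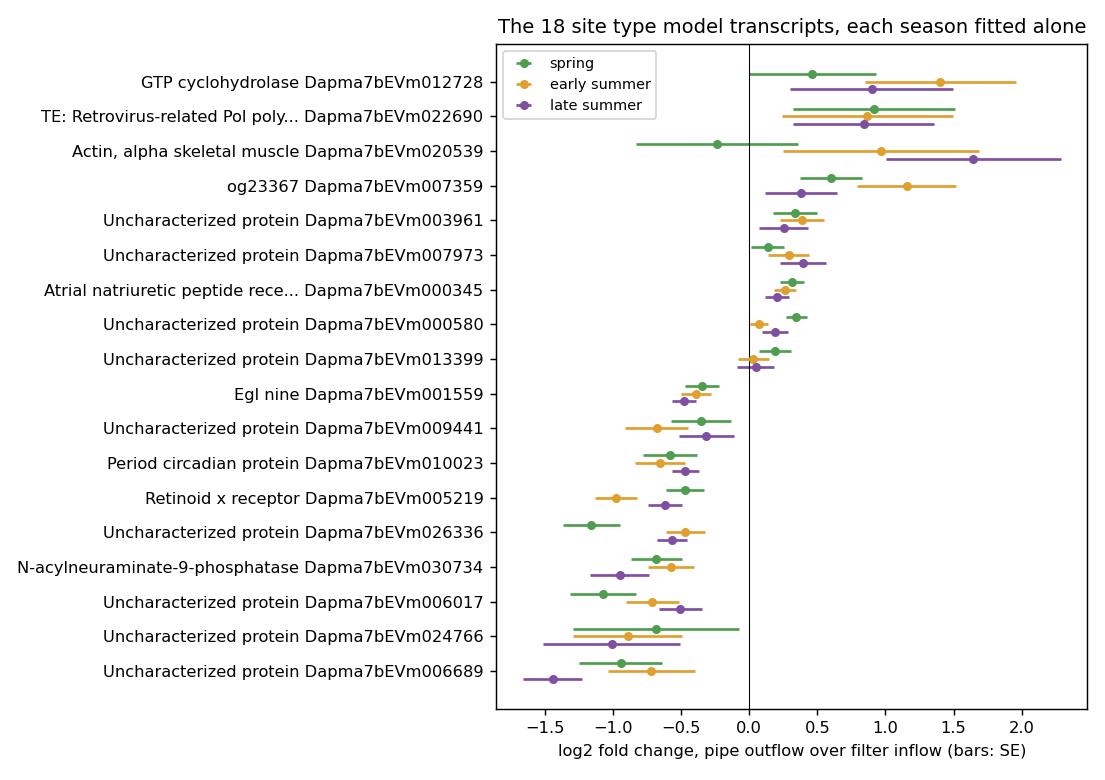
Log2 fold change (pipe over inflow, x axis) of the 18 transcripts of the study's site type classifier in spring, early summer and late summer, fitted separately, with bars of 1 SE. The 8 that passed as lower over all seasons were negative in each season, such as the retinoid X receptor at -0.47, -0.98 and -0.62.

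The transcripts of the study's other classifiers were examined in the same fit. Of the 19 that the study chose for wetland quality, on the libraries of another experiment, 4 passed as lower and none as higher (21.1%, against 0.661% lower and 0.816% higher of all transcripts), with a median log2 fold change of -0.06. They were Dapma7bEVm010269 (-0.97 ± 0.16; median 101 CPM in pipes, 234 CPM in inflows), Dapma7bEVm010095 (-0.93 ± 0.21; medians 37.6 and 72.1 CPM), Dapma7bEVm010199 (-0.38 ± 0.09; medians 130 and 173 CPM) and Dapma7bEVm006872 (-0.27 ± 0.06; medians 103 and 116.95 CPM). None carried a functional name, and over summed waters their adjusted p was 0.360 to 0.540 (edgeR). The call was lost without site SAP for Dapma7bEVm010269 (-0.56), without SAP, TBNS1 or TBNS2 for Dapma7bEVm010095 (-0.63, -0.84 and -0.92), without SAP or TBNS1 for Dapma7bEVm006872 (-0.25 and -0.22), and without TBNS1, TBNS2 or the early summer water of TBNS2 for Dapma7bEVm010199 (-0.34, -0.33 and -0.35). None of the 56 tested transcripts of the season classifier, which was chosen on these same libraries among others, and none of the 16 of the pyriproxyfen classifier passed.

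Among transcripts named in the study's tables, functional groups other than the globins showed no member past the test. The groups hold only such named transcripts and need not be whole gene families. Of 15 groups formed by keywords on the study's names, 14 with 389 members in all had none, among them 75 cuticle proteins, 73 proteases and peptidases, 30 fatty acid elongases and lipases, 26 cytochrome P450s and conjugating enzymes, 21 ribosomal proteins and 20 ABC and efflux transporters. Their median log2 fold changes lay between -0.16 (copper-zinc superoxide dismutases) and 0.24 (ribosomal proteins), and the lowest adjusted p of any member was 0.0870 (edgeR's quasi-likelihood test). A p that missed the threshold does not show that levels were equal in both site types.

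Dapma7bEVm003144 and Dapma7bEVm000968, without a name and singled out after their values were seen, were also at the smallest p of the exact permutation over waters. Dapma7bEVm003144 was at 0.992 to 16.9 CPM in pipes (median 6.80) and 4.82 to 27.8 CPM in inflows (median 13.8), with a log2 fold change of -0.96 ± 0.12 (SE). It was the one transcript that passed when counts were summed per water, with a log2 fold change of -0.94 and an adjusted p of 0.0498 (edgeR's quasi-likelihood test). Without the third spring library of Crystal Lake none passed there. Dapma7bEVm000968 had the lowest adjusted p over libraries (1.8e-08) at a log2 fold change of -0.46 ± 0.06 (SE).

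Over the 19 waters, fewer transcripts passed. Summed per water, 0 transcripts were DEGs and 1 passed (0.00378%), with 1425 at an unadjusted p under 0.05 by edgeR. DESeq2 on the same sums gave 5 DEGs, with 14 passed as higher and 60 as lower. The exact permutation over waters put 732 transcripts at p under 0.05 as lower in pipes (2.77%) and 410 as higher (1.55%), 15 of them at the smallest p. After adjustment over all transcripts 0 passed.

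The 3 seasons were then compared separately, with no library shared between them, to find where the difference between pipes and inflows depends on the event. DEGs numbered 0 higher and 1 lower (0.00388%) in spring, where 14 transcripts passed as lower (0.0543%). In early summer they were 4 higher (0.0155%) and 2 lower (0.00775%), with 41 passed as higher (0.159%) and 25 as lower (0.0969%). In late summer they were 0 higher and 2 lower (0.0077%), with 15 passed as lower (0.0577%). With counts summed per water, 0 transcripts were DEGs in any season, with 1611, 795 and 775 at an unadjusted p under 0.05 in spring, early summer and late summer. Leaving out 1 water moved these counts between 0 and 73 in spring, between 0 and 208 in early summer and between 1 and 4 in late summer.

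The difference between site types itself differed between seasons for 259 transcripts (0.979%; both interaction terms tested together, edgeR's quasi-likelihood test). The number was 160 without the third spring library of Crystal Lake, 87 without that of Cedar Lake as well, and 0 when counts were summed per water, with 1077 at an unadjusted p under 0.05. Values by season below are thus differences between pools, with waters that diverge within a season, and several rest on single libraries.

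Kunitz-type protease inhibitors, small proteins that block serine proteases, gave 3 of 11 protease inhibitors called, against 0.979% of all transcripts. These calls rested on 1 or 2 libraries. Dapma7bEVm003446 was abundant in spring, at 1.29 to 1002 CPM in pipes (median 594) and 0.601 to 660 CPM in inflows (median 360), and low later, with medians of 1.47 and 1.30 CPM in early summer and of 0.749 and 1.16 CPM in late summer. Its log2 fold change was 0.88 ± 0.63 in spring, 2.25 ± 0.71 in early summer and -3.89 ± 0.96 in late summer (SE), with an adjusted p of 0.00153 for the difference between seasons. In late summer the fifth library of TBNS2 held 374 CPM, where the median of that water was 1.16 CPM, and in early summer the fifth library of Crystal Lake held 82.7 CPM, where the median was 1.21 CPM. Without the former library the late summer log2 fold change was -1.31 ± 0.74 (SE), and without the latter the early summer value was -0.026 ± 0.24 (SE). The adjusted p for the difference between seasons was 0.139 without the TBNS2 library, 0.00804 without the Crystal Lake library and 0.397 without both (edgeR).

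The other inhibitors were high in the same libraries. Dapma7bEVm028016 had log2 fold changes of 0.90 in spring, 1.32 in early summer and -3.08 in late summer, with 30.7 CPM in the fifth late summer library of TBNS2 against a median of 0.622 CPM in that water. Without that library the late summer value of Dapma7bEVm028016 was -0.26 ± 0.44 (SE), and the adjusted p for the difference between seasons was 0.626 (edgeR). Dapma7bEVm027813 was at 0 in all 20 pipe libraries of late summer and in all 14 inflow libraries of early summer, so that its fitted fold changes in these seasons depend on the prior count and are no bounds. It reached 50.9 CPM in the fifth late summer library of TBNS2 and 7.28 CPM in the fifth early summer library of Crystal Lake, and the adjusted p for the difference between seasons was 0.130 without the former and 0.147 without the latter (edgeR).

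Dual oxidases, which make hydrogen peroxide at membranes, gave 2 of 19 peroxidases and dual oxidases called, against 0.979% of all transcripts. Dapma7bEVm023994 had medians of 3.35 CPM in pipes and 3.07 CPM in inflows in spring, 3.07 and 0.588 CPM in early summer, and 0.967 and 7.94 CPM in late summer. Its log2 fold change was 0.58 ± 0.71, 2.45 ± 0.74 and -2.43 ± 0.56 in these seasons (SE), with an adjusted p of 0.00610 for the difference between them. In late summer its pipe waters lay at 1.05 to 3.84 CPM and its inflow waters at 5.22 to 10.9 CPM, without overlap, an order found in 1.24% of transcripts with a mean of at least 1 CPM. In early summer they lay at 5.36 to 10.8 CPM and 0.619 to 3.21 CPM, again without overlap (3.4% of such transcripts), though the fifth library of Crystal Lake held 30.2 CPM there against a median of 1.17 CPM in that water. Without the fifth early summer library of Crystal Lake and the fifth late summer library of TBNS2 the adjusted p for the difference between seasons was 0.00878 (edgeR). Dapma7bEVm004682, of the same name, had log2 fold changes of 0.36, 1.84 and -2.08, with an adjusted p of 0.0364 without these 2 libraries (edgeR). Alpha-amylase (Dapma7bEVm002637), which digests starch, was lower in pipes in spring (-1.98 ± 0.39, medians 4.75 and 12.3 CPM, adjusted p = 0.0381 by edgeR, and 0.0599 without the third spring library of Crystal Lake) and at 1.55 ± 0.59 in early summer and -0.29 ± 0.35 in late summer, which did not pass. It was the 1 transcript called for a difference between seasons among 28 of sugar metabolism and transport.

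Transcripts named for the extremes of single seasons had less of a known role. Dapma7bEVm027046, with no name, had the lowest p for the difference between seasons (adjusted p = 3.9e-05), with log2 fold changes of -0.65, 2.03 and -0.063 in spring, early summer and late summer. In early summer it was at 48.6 CPM in SAP, 18.1 CPM in Cedar Lake and 5.05 CPM in Crystal Lake, against 4.20 to 8.05 CPM in inflow waters. The DEG of early summer with the highest fitted log2 fold change was Dapma7bEVm012848 (6.21, which depends on the prior count), at 7.38 CPM in SAP, 3.21 CPM in Cedar Lake and 0 CPM in Crystal Lake, with 28.7 CPM in 1 library of SAP, while inflows were at 0 apart from 1 library of 37ST at 0.473 CPM. Among the DEGs lower in late summer with a mean of at least 1 CPM, Dapma7bEVm005116, an uncharacterized protein, had the lowest log2 fold change (-4.88). The fifth library of TBNS2 held 401 CPM, against a median of 1.42 CPM in that water, and without it the value was -0.98 ± 0.47 (SE) with an adjusted p of 0.640 (edgeR). Cathepsin J (Dapma7bEVm002847), a cysteine protease, had the lowest value among such DEGs of early summer (-3.68), with pipe waters at 0.835 to 2.22 CPM and inflow waters at 5.66 to 49.3 CPM, without overlap (4.73% of transcripts with a mean of at least 1 CPM had this order in early summer). The third library of 37ST held 191 CPM, against a median of 2.55 CPM in that water, and without it the value was -2.07 ± 0.56 (SE) with an adjusted p of 0.0648 (edgeR).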

How the data were processed

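Expression was measured in 94 stormwater libraries of the series. The authors trimmed reads with Trimmomatic after FastQC, used Kallisto to estimate counts against reference transcripts, and deposited these estimated counts per transcript and library, without normalization; the version of the reference is not given in the sources used here. Of the values, 30.9% were not whole, and all were rounded. The authors' model that removes variance between experiments was not applied, and 69 columns of the wetland experiment were not used. Of 186 pairs of libraries of the same water none agreed within sampling noise.

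Counts were fitted with edgeR 4.0.16 (R 4.3.3; TMM factors, quasi-likelihood F test, p-values adjusted after Benjamini and Hochberg), with season as covariate and no filter beyond counts above 0. The study used DESeq2. Alternatives were DESeq2 1.42.0, median-ratio factors, filterByExpr, limma-voom 3.58.1 with water as a random block, the replicate number as a block, a log2 threshold of 1, no season term, and waters, sites or libraries left out. Fits without the third spring library of Cedar Lake the permutation without that of Crystal Lake, and fits by season without single libraries of TBNS2, Crystal Lake and 37ST were added after seeing the data. CPM are counts per 1000000 of the library total, fold changes come from the fits, and the exact permutation test used the mean log2(CPM + 1) per water. The edgeR step was tested on simulated data in which every library was drawn independently. That test thus does not cover effects shared by the libraries of a water or site.

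Depth lay between 5040635 and 14182171 counts, and 3 counts corresponded to 0.2115 to 0.5952 CPM. Counting intervals cover sampling error only. Names came from the study's tables, which name 834 of the 29127 transcripts by function. The transcripts named were those of the site type classifier, those with a functional name that passed over libraries with a mean of at least 1 CPM and the same sign in all 3 seasons, the extreme DEG of each season, the transcript with the lowest p between seasons, and the members of keyword lists that passed a test; others are marked. A further rule, DEGs that also passed over summed waters, gave none. The comparison and the lists were chosen with earlier results of these data known.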

Additional observations from a re-analysis of the deposited data

Results flagged for a closer look

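Of 80 groups of 4 to 10 values examined, 8 held a value far from the rest, where chance gives about 1 in 20. For the retinoid X receptor (Dapma7bEVm005219), the pipe water of Crystal Lake in spring had the lowest mean, 14.5 CPM, and the inflow water of TBNS1 in early summer the highest, 53.7 CPM. The third spring library of Crystal Lake had 72.6% of its counts in 10 transcripts and a total of 5040635 counts. The share in 10 transcripts was also high within their waters in the fifth late summer library of Crystal Lake (17.25%), the third spring library of SAP (19.39%) and the fifth spring library of 37ST (17.07%). The total of the first late summer library of Crystal Lake, 11044118 counts, lay apart from the others of its water.

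For 10 transcripts the log2 fold change of pipes over inflows differed between seasons by the interaction test over libraries (edgeR's quasi-likelihood test), given here for spring, early summer and late summer. The values were 0.88, 2.25 and -3.89 for the Kunitz-type inhibitor Dapma7bEVm003446, 0.90, 1.32 and -3.08 for Dapma7bEVm028016, and 0.019, 5.34 and -8.42 for Dapma7bEVm027813, where the last 2 are set by the prior count, as 1 group was at 0. For the dual oxidases they were 0.58, 2.45 and -2.43 (Dapma7bEVm023994) and 0.36, 1.84 and -2.08 (Dapma7bEVm004682), and for alpha-amylase (Dapma7bEVm002637) -1.98, 1.55 and -0.29. For Dapma7bEVm005116 they were 0.64, 2.62 and -4.88, for Dapma7bEVm027046 -0.65, 2.03 and -0.063, for Dapma7bEVm012848 -2.87, 6.21 and 3.54, and for Dapma7bEVm024815 5.30, 1.95 and 0.39. For Dapma7bEVm024815 the adjusted p of the difference was 0.0182 with all libraries and 0.527 without the third spring library of Crystal Lake. Without the fifth late summer library of TBNS2 the differences of Dapma7bEVm003446, Dapma7bEVm028016, Dapma7bEVm027813 and Dapma7bEVm005116 no longer passed (adjusted p of 0.139, 0.626, 0.130 and 0.138, edgeR). With counts summed per water, none of the differences between seasons passed.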

How the results depend on the processing

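The falls of Dapma7bEVm015367, Dapma7bEVm011064, the retinoid X receptor, Dapma7bEVm001559, Period, N-acylneuraminate-9-phosphatase, Dapma7bEVm006689, Dapma7bEVm006017, Dapma7bEVm026336, Dapma7bEVm003144 and Dapma7bEVm000968 kept their direction and passed in all 34 alternative settings of the fit over libraries, with log2 fold changes of -1.91 to -1.29 for Dapma7bEVm015367 and -0.75 to -0.50 for Dapma7bEVm005219. Over summed waters Dapma7bEVm003144 alone of these passed. The other named transcripts that passed over libraries and were followed over the settings kept their direction and lost the call in 1 to 21 settings each. Dapma7bEVm016549, Dapma7bEVm002879 and Dapma7bEVm014555 were not followed in this way.

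The 48 DEGs over libraries were 0.181% of the transcripts tested. Given as such percentages, DEGs were 0.00756% with DESeq2, 0.0753% with filterByExpr, 0.469% at a log2 threshold of 1, 0.412% without a season term, 0.00378% with limma-voom and water as a random block, 0.0643% without the third spring library of Crystal Lake and 0.0492% without that of Cedar Lake as well. Leaving out a site gave 0.280% (Cedar Lake), 0.0796% (Crystal Lake), 0.0606% (TBNS1) and 0.0720% (TBNS2), and leaving out a water 0.0719% to 0.250%, with 0.0719% for Crystal Lake in spring, 0.0946% for TBNS1, 0.102% for TBNS2 and 0.113% for 37ST in spring, and 0.102% for SAP in early summer. Over summed waters, 0 DEGs became 5 with DESeq2 and 2 without site Crystal Lake, and 0 to 1 with a water left out (1 without Crystal Lake in spring or in early summer).

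In spring, 1 DEG became 10 with DESeq2, 46 with filterByExpr, 7 at a threshold of 1 and 0 over summed waters. With a water left out it was 0 to 73, with 64 without Cedar Lake, 73 without SAP, 7 without 37ST and 0 without Crystal Lake, TBNS1 or TBNS2. In early summer, 6 became 54 with DESeq2, 10 with filterByExpr, 26 at a threshold of 1 and 0 over summed waters, and 0 to 208 with a water left out (208 without 37ST, 92 without Crystal Lake, 13 without Cedar Lake, 1 without TBNS2, 0 without SAP or TBNS1). It was 10 without the fifth early summer library of Crystal Lake and 25 without the third of 37ST. In late summer, 2 became 15 with DESeq2, 7 at a threshold of 1, 0 over summed waters and 4 without the second SAP set, and 1 to 4 with a water left out (1 without Cedar Lake or the first SAP set), and 1 without the fifth library of TBNS2. The 259 transcripts that differed between seasons became 160 and 87 without the spring libraries named above, 215 without the fifth late summer library of TBNS2, 266 without the fifth early summer library of Crystal Lake, 230 without both, and 0 over summed waters. The share of variance of site type, 0.797%, was 0.827% with a pseudocount of 0.1, 0.786% for means of at least 1 CPM, 2.32% over means per water and 0.791% without the third spring library of Crystal Lake. The causes were not tested.

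Replicate numbers did not pair the libraries: the deviations of 837 pairs with the same number had a median correlation of 0.0085, and those of 3348 other pairs -0.0061. With the replicate number as a block, DEGs over libraries were 15 (0.0567%), in spring 1, in early summer 1 and in late summer 3, and 74 transcripts differed between seasons.

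Among the named transcripts followed over the settings, directions over all seasons turned only for some that had not passed. Dapma7bEVm016549, which was not followed, had passed over libraries and turned to -0.39 without the third spring libraries of Crystal Lake and Cedar Lake. The log2 fold change of Dapma7bEVm005116 was 1.02 with limma-voom, 0.40 without a season term, 0.65 without SAP and 0.75 without TBNS2 (-1.98 to 0.60 with a water left out). That of Dapma7bEVm002046 was 0.092 without a season term, 0.044 without the second SAP set, 0.20 without Crystal Lake, 0.30 without SAP and 0.13 without 37ST (-0.40 to 0.16). That of Dapma7bEVm002068 was -0.26 with limma-voom, -0.11 without Cedar Lake and -0.038 without 37ST (-0.17 to 0.22), and that of Dapma7bEVm011771 -0.55 with limma-voom and -0.65 without Cedar Lake (-0.17 to 0.54). Dapma7bEVm003446 had 1.09 with limma-voom, 0.59 without a season term, 0.067 without Cedar Lake, 0.50 without SAP and 0.22 without TBNS2 (-1.18 to 0.40). Dapma7bEVm028016 had 1.22, 0.66, 0.17 and 0.99 with limma-voom, without a season term, without SAP and without TBNS2 (-0.65 to 0.78), and Dapma7bEVm027813 had 0.12 without SAP. Dapma7bEVm004682 had 0.0024 without a season term, 0.0085 without the second SAP set, 0.16 without Cedar Lake and 0.27 without SAP (-0.52 to 0.13). Dapma7bEVm023994 had 0.0011 without the third spring library of Crystal Lake, 0.090 without a season term, 0.12 without the second SAP set, 0.37 without Cedar Lake and 0.46 without SAP (-0.51 to 0.29), and Dapma7bEVm002637 had 0.10 without Cedar Lake.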
